A study of Mus musculus with 2 samples.

Results

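The genes of mouse chromosome 8 were followed in the order in which they lie on the chromosome, and their expression was compared in B16F10 cells with NRF3 and with GFP as the transgene. Members were the probe sets whose name places them on chromosome 8 and that carried a gene symbol, with 1 probe set per gene. This gave 929 of the 19505 named genes of the array, 920 of them protein coding, ordered by gene start in the RefSeq table of assembly GRCm38.p6. All 929 also lay on chromosome 8 in that table. The first in order was Insr, the insulin receptor gene.

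B16F10 is a pigmented mouse melanoma line. In the GFP group the cells had been transfected with a GFP expression plasmid, and in the NRF3 group with a plasmid for NRF3, a transcription factor of the endoplasmic reticulum that is encoded by Nfe2l3. Both groups also received a puromycin resistance vector and puromycin selection, and then forskolin, an activator of adenylate cyclase that raises cAMP, for 5 days. The sources used here do not name the promoter of the plasmids, nor say whether each stable population was a pool or a clone. Each group was 1 array of total RNA, so no difference has an error, an interval or a p-value, and each compares these 2 RNA samples.

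Genes of a chromosome share no common function. Neighbours do share the DNA they lie on, so that the number of copies of a chromosome arm, the timing of its replication and the chromatin domains within it can act on many adjacent genes together, and melanoma lines often carry altered chromosome numbers. Both the typical difference over many neighbours and the distance of single genes from it are therefore given below. DNA copy number was not analysed here, and its part in the differences was not tested. Total RNA from a culture also cannot tell a difference in every cell from a larger difference in some of the cells.

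The values are log2 expression values on the robust multi-array average (RMA) scale, and a difference is the NRF3 value minus the GFP value. A gene was called detected when its brighter value was at least 5.89, the median over both arrays of the probe sets with a symbol, which was met by 10162 genes in all and by 548 of the 929 on chromosome 8. The other 381 stayed below that floor on both arrays. The 5222 control rows labelled neg had medians of 6.12 (GFP) and 6.37 (NRF3), and their upper quartiles were 7.52 and 7.85. Of the 548 detected genes, 169 had at least 1 value under the upper quartile of its array, and such values are called dim here, because a difference that rests on them may depend on background. All 7 melanocyte markers looked up were detected, among them Tyr, Pmel and Mitf, and none of the 4 leukocyte, 3 fibroblast, 3 endothelial and 4 epithelial markers on the array was. Nfe2l3 itself read 6.04 in GFP and 10.1 in NRF3 cells. Pairs of readings below give the GFP value first.

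Promoter sequences are shown for 4 of the genes that stood farthest from their neighbours, because NRF3, like other cap'n'collar factors with small MAF partners, is known to bind antioxidant response elements. RefSeq windows (GRCm38.p6) of the 250 bases before the gene start were searched on both strands for the antioxidant response element core TGACNNNGC, for the E-box CACGTG, which MITF and TFE factors bind, and for the cAMP response element TGACGTCA. The last begins with the same 4 letters as the first, but their other letters differ so that their matches cannot overlap. Of the 24 farthest genes 18 had a window, and those of Ell, Mcoln1, Slc27a1 and Mt2 held a match. Hmox1, Maf, Tmem161a, Wfdc1, Cdh13 and Micu3 had no window, so their promoters were not searched. Matches are in capitals, and each sequence runs 5′ to 3′ on the strand of the gene.
Ell, chr8:70539425-70539674, plus strand: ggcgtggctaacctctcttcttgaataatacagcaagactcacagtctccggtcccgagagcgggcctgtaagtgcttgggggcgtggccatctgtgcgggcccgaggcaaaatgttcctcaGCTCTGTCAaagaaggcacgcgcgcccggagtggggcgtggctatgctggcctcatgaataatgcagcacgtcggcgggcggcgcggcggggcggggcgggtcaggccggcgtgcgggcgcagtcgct
Mcoln1, chr8:3500269-3500518, plus strand: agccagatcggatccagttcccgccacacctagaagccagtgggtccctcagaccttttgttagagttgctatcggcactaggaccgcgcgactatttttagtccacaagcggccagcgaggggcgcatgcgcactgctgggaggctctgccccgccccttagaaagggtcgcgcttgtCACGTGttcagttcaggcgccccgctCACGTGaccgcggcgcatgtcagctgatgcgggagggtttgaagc
Slc27a1, chr8:71570344-71570593, plus strand: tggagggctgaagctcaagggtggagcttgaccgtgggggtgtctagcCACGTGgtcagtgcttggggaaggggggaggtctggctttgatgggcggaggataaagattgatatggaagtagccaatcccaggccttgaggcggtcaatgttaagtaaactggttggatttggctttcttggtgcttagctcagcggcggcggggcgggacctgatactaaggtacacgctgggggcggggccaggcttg
Mt2, chr8:94172368-94172617, plus strand: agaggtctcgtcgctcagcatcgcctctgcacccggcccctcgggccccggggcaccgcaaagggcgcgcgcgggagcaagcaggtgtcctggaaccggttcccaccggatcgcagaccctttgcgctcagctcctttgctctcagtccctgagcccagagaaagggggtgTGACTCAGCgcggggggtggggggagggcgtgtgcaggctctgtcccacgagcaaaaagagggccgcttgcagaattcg
The Ell match begins 128 bases before the gene start and reads in the reverse direction, and the Mt2 match begins 79 bases before it. Mcoln1 held the E-box 71 and 45 bases before its start. Slc27a1 had several windows, and the E-box lay in the last of them, 202 bases before the start. Such matches are common. TGACNNNGC was in 10.2% of 32851 windows of all genes and in 12.7% of 488 windows of detected chromosome 8 genes. CACGTG was in 6.02% and 9.02% of these windows and TGACGTCA in 1.55% and 3.89%. For the genes farthest above their neighbours TGACNNNGC was in 1 of 10 windows, and for those farthest below in 1 of 17. The counts were the same for CACGTG. None of these windows held TGACGTCA. A match describes letters in the window and shows no binding.

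Chromosome 8 genes were mostly higher in the NRF3 cells. The median difference of the 548 detected genes was 0.56, or 1.48-fold, with quartiles of 0.07 and 1.03, against a median of -0.07 over all 10162 detected genes. Of the 548, 421 lay above 0, which is 76.8%, where the share over all detected genes was 45.8%. At least 1.5-fold higher were 260, or 47.4%, beside 17% of all detected genes, and at least 1.5-fold lower were 51, or 9.31%, beside 23.6%. At the 2-fold rule 146 genes were higher and 28 lower, which is 26.6% and 5.11%, beside 6.75% and 11% of all detected genes. Relative to all detected genes the median of chromosome 8 was 0.64. After quantile normalization, which moved the median of all detected genes from -0.07 to 0.03, it was 0.63.

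No other autosome, nor the X chromosome, had a median as high. Over the other autosomes and the X chromosome the medians ran from -0.51 on chromosome 1 to 0.23 on chromosome 7. The share of detected genes at least 1.5-fold higher ran from 5.98% to 29.2% there. The lower quartile of chromosome 8, 0.07, thus lay above the median of 15 of the 19 others.

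**Figure D1:**
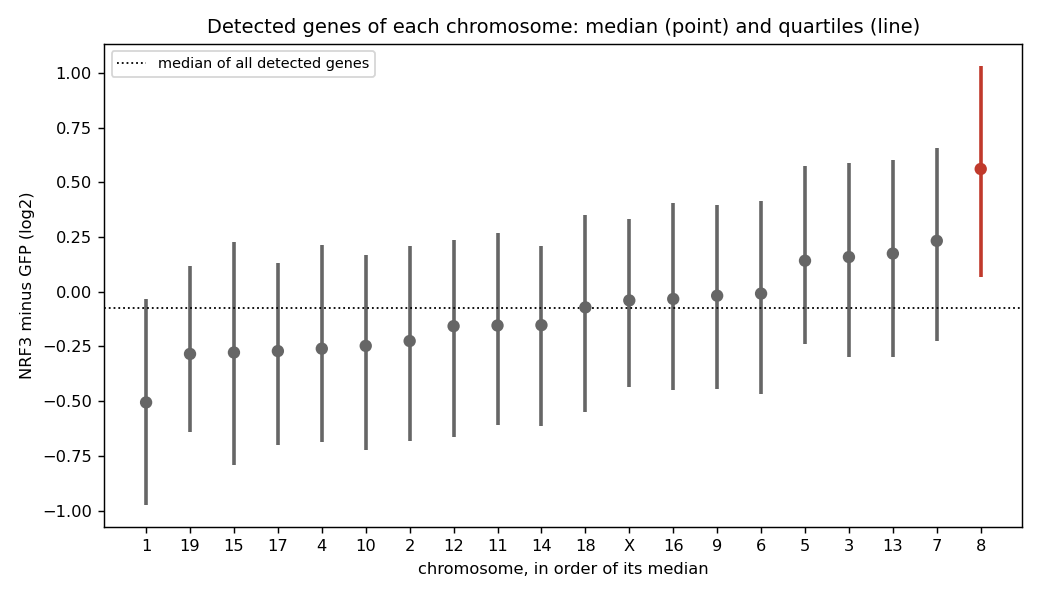
Median (point) and lower and upper quartile (line) of NRF3 minus GFP in log2 units over the detected genes of each autosome and the X chromosome, ordered by median, with the median of all detected genes as a dotted line. Chromosome 8, in red, sits at 0.56 and the next, chromosome 7, at 0.23.

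The higher values did not run along the whole chromosome. The ordered genes were cut where the fit of a constant level per segment was best (least absolute deviations, at least 20 genes per segment, neighbouring medians at least 0.5 apart). This gave 3 segments. The cuts were placed on the differences themselves, so the segment medians are a description. The first segment ran from Insr to Sap30, with 167 detected of 319 genes and a median of 0.69. The middle segment ran from Hmgb2 to the predicted gene model before Zswim4, with 129 detected of 205 genes and a median of 0.06. The last ran from Zswim4 to the end of the chromosome, with 252 detected of 404 genes and a median of 0.75.

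In the first segment 140 of 167 genes lay above 0, with 92 at least 1.5-fold higher and 7 that much lower. In the last, 213 of 252 lay above 0, with 147 higher and 13 lower by that rule. In the middle segment 68 of 129 genes lay above 0, with 21 higher and 31 lower by the same rule. The shares past 1.5-fold, 16.3% and 24%, were close to the 15.3% and 24.4% of the 9614 detected genes on all other chromosomes. The share above 0 was larger than there, at 52.7% beside 44%, and so was the median, at 0.06 beside -0.10. Most of the higher values of chromosome 8 thus lay in its outer segments, which began with Insr at the centromeric end of the map and stopped near Hmgb2, and began again at Zswim4 and reached the other end.

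**Figure D2:**
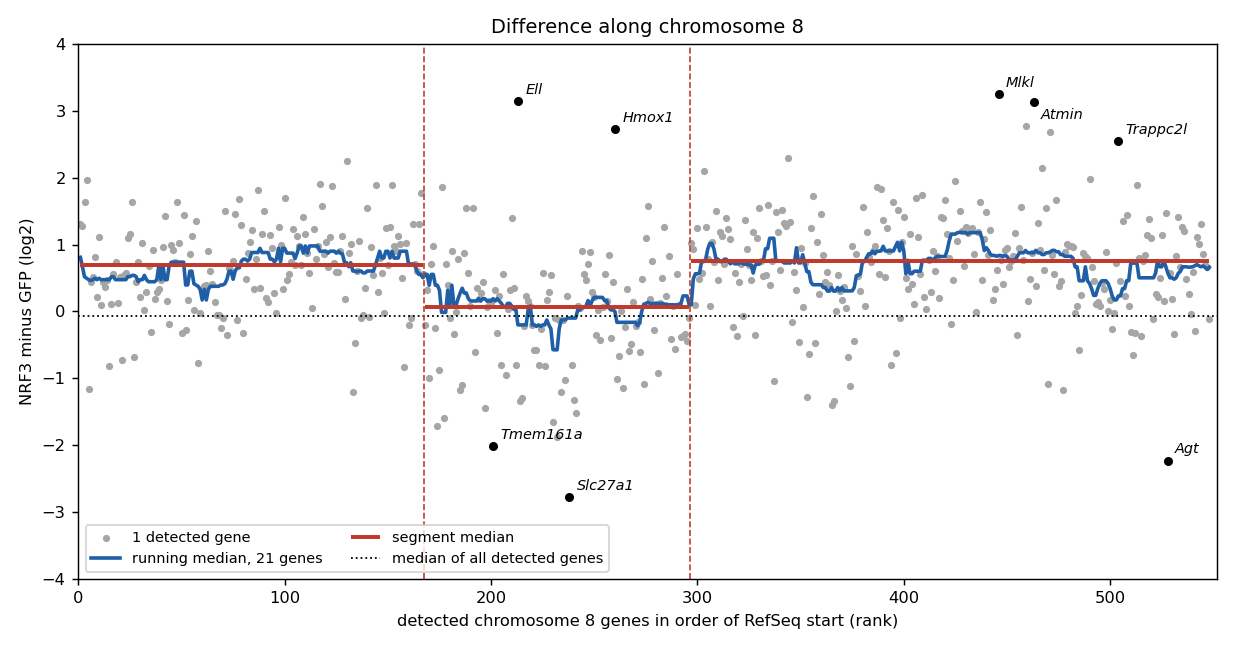
NRF3 minus GFP in log2 units for each of the 548 detected chromosome 8 genes (grey points) against the rank of the gene in start order, with the running median of 21 genes (blue), the median of each segment (red) and the cuts (dashed). The blue line stays above 0 in the outer segments, falls to -0.58 in the middle segment and reaches 1.18 in the last, and the 8 labelled genes lie far from their neighbours.

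The cuts differed in sharpness. Before Zswim4 the change was abrupt. The last 5 detected genes of the middle segment before it, from Mir1199 to the predicted model, all lay below 0, between -0.10 and -0.45. Among them were Rfx1, a transcription factor gene, with 8.38 and 8.01, and Cc2d1a, with 8.14 and a dim 7.69. Mir1199, with 6.96 and 6.58, was dim on both arrays, and the predicted model had a dim NRF3 value of 7.74. Zswim4 read 8.57 and 9.58, a difference of 1.02, and it opened a run of 20 consecutive detected genes above 0 that ended at Trir and had a median of 1.02. In that run lay the immediate-early gene Ier2, at 0.49, Ccdc130, at 1.25, and Nacc1, a transcriptional repressor gene, at 0.57.

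The change at Hmgb2 was less sharp. The 6 detected genes before it, Spcs3 to Sap30, lay between 0.55 and 1.77. The highest of these, Scrg1, read 5.19 and 6.96, so its difference rests on dim values. Sap30, a subunit of a histone deacetylase complex, read 8.72 and 9.28. Hmgb2, a chromatin protein of dividing cells, read 9.48 and 9.28, the first of the segment and slightly below 0. After it the genes alternated, with Mfap3l at -0.99, from dim values, Hpf1, a partner of PARP1, at 0.71 and the chloride transporter gene Clcn3 at 0.97. The running median over 21 genes was 0.55 at Hmgb2 and 0.39 at Sh3rf1, fell to -0.01 at Msmo1, was back at 0.39 at Nat2 and stood at 0.16 at Lpar2. Of 14 other settings, 12 gave more than 1 segment. A segment began at Zswim4 in all 12 and at Hmgb2 in 8. Among these 8, median centring shifts all differences alike and could not move a cut. Averaging over probe sets, also among them, touches only 1 chromosome 8 gene. In the other 4 the middle segment began further along, at Sh3rf1, Naf1 or Ndufa13. Those 4 were the settings with a stricter detection rule, so that the place of this cut depends on which dim genes are counted.

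**Figure D3:**
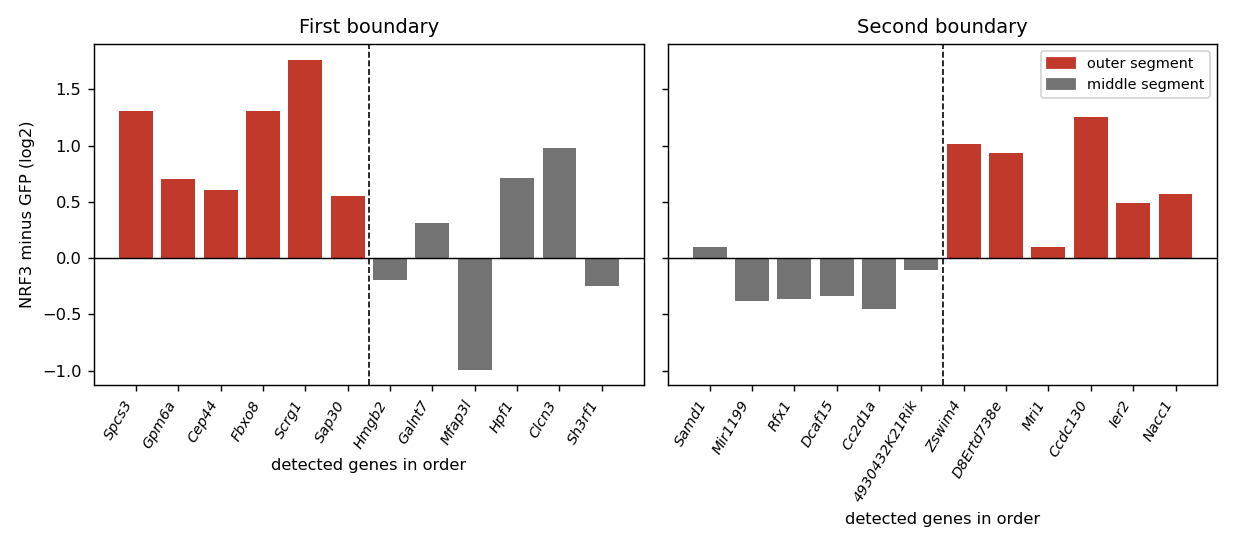
NRF3 minus GFP in log2 units for the 6 detected genes on each side of both cuts, in chromosome order, with outer segments in red and the middle segment in grey. Values at the first cut alternate after Hmgb2, whereas at the second cut 5 values below 0 are followed by 6 above 0.

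Within the outer segments the level varied. The first segment was lower near its start, with a median of 0.46 over the 74 detected genes from Insr to Slc25a15, and higher beyond, with 0.87 over the 93 from Mrps31 to Sap30. The longest run of detected genes above 0 lay there, 36 genes from Pomk, a kinase of dystroglycan glycosylation, to Tusc3, a subunit of the oligosaccharyltransferase, with a median of 0.94. The longest such run on any other chromosome was 28 genes. The last segment had a median of 0.93 over the 49 genes from Zswim4 to Irx5 and 0.31 over the 34 genes from Lpcat2 to Cdh11. Beyond these it had 0.90 over 103 genes from Tk2 on, and 0.49 over the final 66 from Gse1 on. The smallest of these steps, 0.41, is below the 0.5 required of a segment. The highest running median on the chromosome, 1.18, was centred on Dhx38, a splicing helicase gene.

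The lowest stretch was in the middle segment. The running median reached -0.58 at Abhd8, in a run of 7 genes from Ankle1 to Bst2 that all lay below 0 with a median of -1.03. Mrpl34, a mitochondrial ribosomal protein gene, read 11.7 and 9.77 there, and Ankle1, a nuclease gene, lay at -1.66 with a dim NRF3 value. Bst2, the interferon-induced gene of tetherin, read 9.01 and 7.98. Slc27a1 and Colgalt1 followed within 4 genes.

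By the same cutting rule 12 of the 19 other chromosomes stayed whole and 7 were cut. Small blocks stood out there as well, such as 25 genes at 1.20 on chromosome 13. On 5 of those 7 the highest segment had a median above 0, and it held 23 to 25 genes, fewer than the 167 and 252 of the first and last segments of chromosome 8. Only the highest segment of each was counted, so longer stretches with a smaller median above 0 are not covered. Chromosomes 3, 5 and 7 stayed whole, with medians of 0.16, 0.14 and 0.23 over 520, 681 and 723 detected genes.

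The higher values of the outer segments grew with expression level. When all detected genes were split by mean level into 3 equal classes, the median of the outer segments was 0.45 in the lowest, 0.80 in the middle and 0.98 in the highest class. In the middle segment these medians were -0.12, -0.04 and 0.23, and on the other chromosomes -0.08, -0.15 and -0.09. In the highest class 63.8% of the middle segment lay above 0, beside 44.6% elsewhere. When genes with a dim value were left out, the medians of the first, middle and last segments were 0.78 over 111 genes, 0.11 over 90 and 0.86 over 178, beside -0.09 over 6551 genes on other chromosomes.

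Single genes were then set against their surroundings. For each gene the median difference of its 10 detected neighbours on each side was subtracted, and a gene was said to depart when it lay at least 2-fold from them. On chromosome 8, 94 of 548 genes departed, or 17.2%, beside 16% over the autosomes and X, a share near that background. There were 37 above their neighbours and 57 below, beside 6.92% and 9.12% over those chromosomes. A dim value was found in 10 of the 37 and in 30 of the 57. All 57 genes below their neighbours also had a difference below 0, and 40 were at least 1.5-fold lower in the NRF3 cells. The rule nearly sets the first of these counts, because such a gene lies at least 2-fold under its neighbours and no running median exceeded 1.18. The same counts are not given for other chromosomes. By segment, 23 genes departed in the first, 28 in the middle and 43 in the last, which is 13.8%, 21.7% and 17.1% of their detected genes.

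Ell stood farthest above its surroundings. This gene of an elongation factor of RNA polymerase II read 7.17, a dim value, and 10.3, which is 3.14 apart, while the median of its neighbours was -0.21. The genes on either side, Fkbp8 and Ssbp4, lay at -0.80 and -1.34. Its difference thus went against the stretch it lies in. The promoter window of Ell is the one shown above with the TGACNNNGC match.

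Hmox1 encodes heme oxygenase, which breaks down heme and is a textbook target of cap'n'collar factors. It read 15.1 and 17.8, a difference of 2.72, or 6.61-fold, in the middle segment. Its adjacent genes were Tom1, an endosomal sorting gene, at 0.43 and Mcm5, of the replicative helicase, at -1.01. Neither Hmox1 value was dim, and the median of its neighbours was -0.11.

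Msmo1 and Usp38 were the other genes of the middle segment among the 12 farthest above. Msmo1, a methyl sterol oxidase gene of cholesterol synthesis, read 10.12 and 11.98, with neighbours at -0.06. Usp38, a deubiquitinase gene, read 9.39 and 10.96, with neighbours at 0.13.

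In the last segment, Mlkl and Atmin lay far above neighbours that were themselves raised, whereas the neighbours of Trappc2l were less so. Mlkl, the effector of necroptosis, read 10.5 and 13.8, a difference of 3.25, with neighbours at 0.83. Its adjacent genes Rfwd3 and Wdr59 lay at 0.62 and 0.76. Relative to its neighbours the difference of Mlkl was therefore 2.42. Atmin, a transcription factor gene of the DNA damage response, read 8.69 and 11.8, which was 2.26 above its neighbours at 0.86. Trappc2l, a subunit of the TRAPP vesicle tethering complex, read 9.43 and 11.98, which was 2.34 above its neighbours at 0.20.

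Map1lc3b, which encodes the autophagosome protein LC3B, read 9.72 and 11.7 and lay 1.60 above its neighbours. Hsbp1, which binds heat shock factor, read 9.43 and 12.1 and lay 1.80 above them. Irx3, a homeobox gene, read 8.58 and 10.9 and lay 1.63 above. Maf, a large MAF transcription factor gene, read 3.79 and 6.56, so both values were dim and its difference of 2.77 depends on background. In the first segment, Mcoln1, the lysosomal calcium channel gene whose window holds the E-box, differed by 1.96, to 12.96 in the NRF3 cells, and lay 1.49 above its neighbours.

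Agt stood farthest below. The angiotensinogen gene read 9.82 and 7.59, the latter dim, in a stretch where the median of its neighbours was 0.62, so that it lay 2.85 below them. Its adjacent gene Cog2, of a Golgi tethering complex, lay at 1.48. Slc27a1, a fatty acid transporter gene, read 10.7 and 7.88, the lowest difference among the detected chromosome 8 genes at -2.77, with neighbours at -0.02. Tmem161a, a membrane protein gene, read 9.81 and 7.80 with neighbours at 0.21. Palld, of the actin cytoskeleton, read 8.75 and 7.04 with neighbours at 0.47, and Klhl2, a ubiquitin ligase adaptor gene, read 9.16 and 7.57 with neighbours at 0.15. The NRF3 values of Tmem161a, Palld and Klhl2 were dim.

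Within the raised segments several genes were lower. Adcy7, an adenylate cyclase gene, read 8.17 and 7.13, the latter dim, where its neighbours lay at 1.14, among them Brd7, a bromodomain gene, at 1.48 and Cyld, a deubiquitinase gene, at 1.19. Adgrg1, an adhesion G protein-coupled receptor gene, read 11.8 and 10.4 with neighbours at 0.38, and neither value was dim. Dctd, the dCMP deaminase gene, read 12.3 and 11.5 with neighbours at 0.94. Wfdc1, Cdh13 and Micu3 also lay below their neighbours, but each had dim values on both arrays.

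The metallothionein genes lie next to each other in the last segment and shared a direction. Mt2 read 17.5 and 16.3 and Mt1 read 19.2 and 18.6, with differences of -1.28 and -0.64 where the neighbour medians were 0.66 and 0.59. Mt3 and Mt4 were not detected, with values of at most 5.58. The promoter window of Mt2 holds the other TGACNNNGC match, so a match was present in a gene that was higher and in a gene that was lower.

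**Figure D4:**
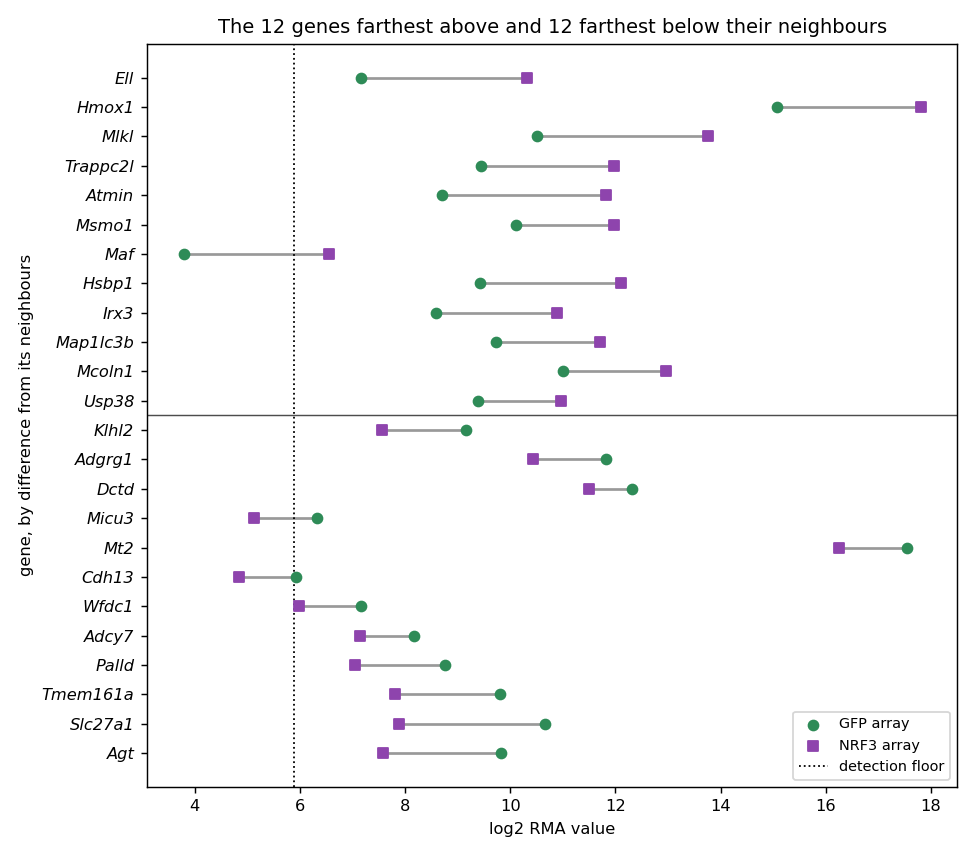
Log2 RMA values (GFP circle, NRF3 square) of the 12 genes farthest above and the 12 farthest below the median of their neighbours, ordered by that distance, with the detection floor as a dotted line. Ell, at the top, goes from 7.17 to 10.3 and Agt, at the bottom, from 9.82 to 7.59.

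Gene lists were compared between members on chromosome 8 and members elsewhere. Of the lists with at least 5 detected members on chromosome 8, replication and mitosis genes differed most between the places. The 15 members on chromosome 8 had a median of 0.34, with 7 higher and 1 lower by the 1.5-fold rule, while the 94 members elsewhere had a median of -0.63, with 1 higher and 50 lower. Over all detected genes the shares were 17% higher and 23.6% lower. On chromosome 8 as a whole 47.4% were higher, so that the 7 of 15 were near the share of their chromosome. Of the 12 members in the outer segments 11 lay above 0, beside 84.2% of all detected genes there, and of the 3 in the middle segment none did.

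Among those in the outer segments, Cenpu, a centromere gene, read a dim 7.36 and 8.62, Gins4, of the replicative helicase complex, 11.1 and 12.3, and Rnaseh2a, of ribonuclease H2, 9.69 and 10.9. The origin recognition gene Orc6 read 9.16 and 10.1. In the middle segment Hmgb2 lay at -0.20, Mcm5 at -1.01 and the histone chaperone gene Asf1b at -0.56. Cdt1, a licensing factor gene in the last segment, read 10.9 and 10.6. Against their neighbours 10 of the 15 lay lower, with a median of -0.28.

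Lysosome genes on chromosome 8 had a median of 0.60 over 8 members, with 4 higher and none lower by that rule, beside a median of 0.08 over 51 members elsewhere, with 9 higher and 9 lower. The 4 of 8 were near the 47.4% of all detected chromosome 8 genes, beside 17% of all detected genes. The proton pump genes Atp6v0d1 and Atp6v1b2 read 13.6 and 15.2, and 13.9 and 14.7. Lamp1, the abundant lysosomal membrane protein gene, read 14.9 and 15.4, and its difference of 0.47 was close to the 0.51 of its neighbours. Galns, of keratan sulfate breakdown, lay at 0.72 and rests on a dim value. Man2b1, lysosomal alpha-mannosidase, lay at -0.06 in a stretch at 0.73. Against their neighbours 4 of the 8 lay lower. The autophagy genes Map1lc3b and Gabarapl2 lay at 1.98 and 1.17, beside a median of 0.36 over 39 members elsewhere.

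Antioxidant genes went both ways. Of 6 detected members 3 were at least 1.5-fold higher, Hmox1, Gsr and Prdx2, and 2 were lower, Mt2 and Mt1, beside 14 higher and 11 lower of 46 elsewhere. The shares over all detected genes were 17% higher and 23.6% lower, and on chromosome 8 they were 47.4% and 9.31%. The difference of Mt1 was less than 1.5-fold after median centring, at -0.57, and with the lowess trend subtracted, at -0.54. Gsr, glutathione reductase, read 12.8 and 14.4, and Prdx2, a peroxiredoxin, 14.3 and 15.5. They lay 0.69 and 0.40 above their neighbours, far less than Hmox1. Nqo1, a quinone reductase gene much used as a readout of NRF2, lay at -0.19 in a stretch whose median was 1.17, with dim values on both arrays.

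Genes of the cAMP and melanocortin route included Mc1r, the melanocortin receptor gene of melanocytes. It read 13.4 and 14.2, a difference of 0.79 with neighbours at 0.48. Prkaca, the protein kinase A catalytic subunit gene, read 12.9 and 13.5, and the CREB coactivator gene Crtc1 lay at 0.03, both in the middle segment. With Adcy7 the 4 members had a median of 0.30, beside -0.11 over 23 members elsewhere. Of the growth factor and receptor genes, 4 were detected, all in the first segment. Insr read 9.45 and 10.8. Irs2, its adaptor, read 5.22 and 6.86, both dim. The growth factor genes Nrg1 and Vegfc differed little, by 0.06 and -0.10 where their neighbours lay at 1.01 and 0.80, and all their values were dim. Fgfr1 was not detected.

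**Figure D5:**
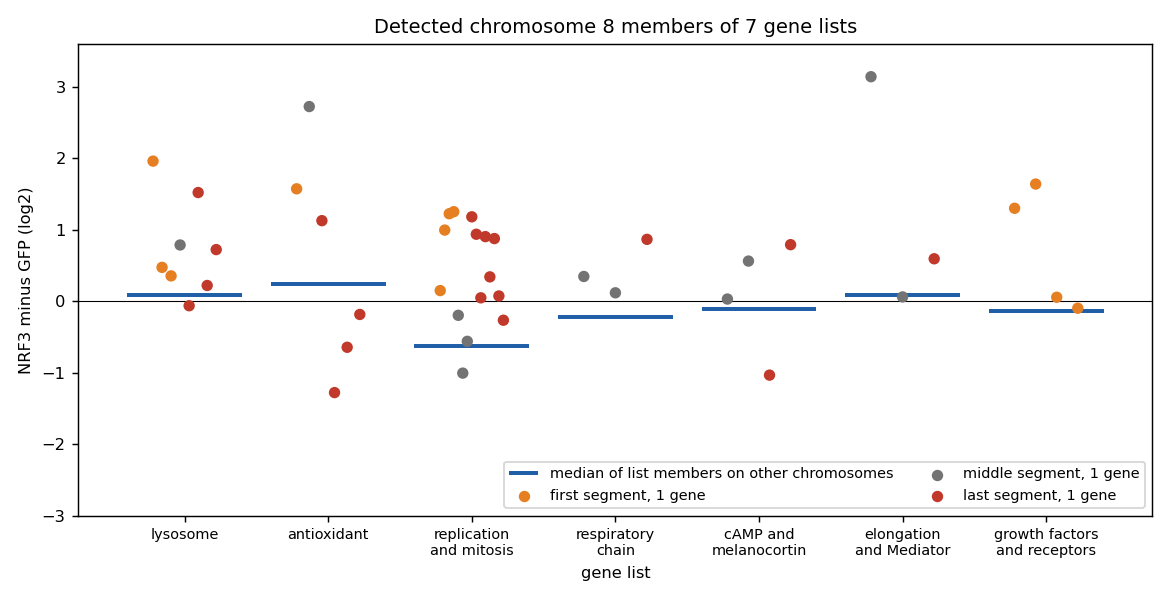
NRF3 minus GFP in log2 units for each detected chromosome 8 member of 7 gene lists, coloured by segment, with the median of the members of the same list on other chromosomes as a blue bar. Of 15 replication and mitosis genes 11 lie above 0, while the median of the 94 members elsewhere is -0.63.

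The other lists had few members. The proteasome genes Psmd7 and Psmb10 lay at 1.05 and 0.11, beside a median of 0.84 over 42 elsewhere, and both Psmb10 values were dim. Psmd7 differed from its neighbours by -0.13. Of the respiratory chain genes, Cox4i1 lay at 0.87 in the last segment and Ndufa13 and Ndufb7 at 0.35 and 0.12 in the middle segment, beside -0.22 over 74 elsewhere. Mrps31 in the first segment lay at 0.75 and Mrpl34 in the middle at -1.88, beside -0.31 over 74 other mitochondrial ribosomal protein genes. The factor genes Jund, Ier2 and Junb lay at 0.23, 0.49 and 0.71, and both Junb values were dim. The Mediator gene Med26 lay at 0.06, from dim values, and the polymerase gene Polr2c at 0.59. Ccl25, a chemokine gene, lay at 0.52 and Col4a2, of type IV collagen, at -0.69, and both rest on dim values.

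Large families on the chromosome were mostly not detected. Of 44 defensin genes 11 were detected, of 17 carboxylesterase genes 2 and of 8 cadherin genes 2, and each of these 15 had a dim value. Defa20 and Defa32 held identical values, so the array does not separate these copies. The detected defensins lie in the first segment and had a median of 0.14, and the running median of that segment had its lowest point, 0.17, at Defb5.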

How the data were processed

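Expression was measured on 2 single-colour Affymetrix arrays, 1 per group. The authors deposited log2 values per probe set, made with Affymetrix Expression Console and RMA, per the submitters' processing notes; its version, its settings and the build are not stated in those notes. Arrays give no read depth, and their number limits the precision.

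Of 1044 chromosome 8 probe sets 930 carried 1 gene symbol, and 1 gene had several, of which the brightest by mean was kept. Symbols came from the platform annotation and order from RefSeq. Genome coordinates are printed only for RefSeq promoter windows. Python 3.11.15 (numpy 2.4.6, pandas 2.3.3, statsmodels 0.14.6) was used, and the cutting procedure was tested on simulated data. It was set to at most 8 segments.

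No test was possible. Named genes are the 12 farthest above and 12 farthest below their neighbours, the genes at the ends of segments, up to 8 detected members of each of 17 lists, and Mc1r, Hmox1, Nqo1, Gsr, Mt1, Mt2, Junb, Jund, Map1lc3b and Lamp1; predicted gene models are not named. Others were chosen after their values were seen, as neighbours or ends of runs. The members, lists and rules were chosen with earlier results of these data known. Alternatives were other floors, scalings, windows, probe set rules and cutting rules; leaving out every dim gene was added after seeing the data.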

Additional observations from a re-analysis of the deposited data

How the results depend on the processing

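All differences rest on 1 array per group, so no setting shows how cultures vary. No paired analysis was possible because each group had 1 array. Of 234 recomputed differences of named genes under median centring, quantile normalization and lowess trend subtraction, none of those past 1.5-fold changed sign. Median centring only subtracted the median of all detected genes, -0.07, from every difference. It could therefore not change the sign of a difference past 1.5-fold. The other scalings moved values little too, such as Maf from 2.77 to 2.57 with the lowess trend subtracted, so the lack of sign changes says little. Some differences under 1.5-fold did change sign. After quantile normalization Vegfc went from -0.10 to 0.07 and Man2b1 from -0.06 to 0.07. Of 112 recomputed summary values 31 moved by the rule used, which was a median or share outside its 95% binomial interval, a count changed by over 1.5 times, another number of segments or a cut shifted by over 20 genes. That interval treats genes as independent, although neighbours differed together, and the settings share their genes. It served only as a size rule and measures no error. The median of chromosome 8 was 0.77 for a floor at the 75th percentile of values, 0.34 with no floor, 0.64 after median centring, 0.66 after quantile normalization, 0.63 with the lowess trend subtracted and 0.70 with dim genes left out. The share of its genes at least 1.5-fold higher was 59.2%, 35.0%, 52.7%, 54.7%, 52.9% and 53.3% in these settings, and 26.6% at 2-fold. Over all detected genes the shares were, in the same order, 17.85%, 15.03%, 20.03%, 20.87%, 19.27% and 16.62%, and 6.75% at 2-fold. Relative to the median of all detected genes, that of chromosome 8 was 0.85, 0.33, 0.64, 0.63, 0.63 and 0.76, beside 0.64 as reported. Median centring subtracts the same value from every gene, so it could not change this relative median. Lowess subtraction also took out a common trend, so these settings say little about how firm the relative median is. After quantile normalization it was 0.63. Over the gene ranges of the 3 reported segments, the medians with the floor at the 75th percentile were 0.97, 0.18 and 0.98, and after quantile normalization 0.83, 0.17 and 0.87. Over the same ranges with no floor the first and last were 0.40 and 0.45, and with dim genes left out the last was 0.86. Departing genes numbered 55 of 277 with the 75th percentile floor, 53 of 379 with dim genes left out and 140 of 929 with no floor. As reported they were 94 of 548, and the share over other chromosomes is not given for these settings. The first 2 of these settings gave 5 segments, with the middle one beginning at gene 346 and 371 of the 929 in place of 320. With no floor, or with a required step of 0.7, there was 1 segment, and with a step of 0.3 there were 8. The cause of these shifts was not tested. Medians of short gene lists have wide intervals by this size rule, so their values are given instead. With the 75th percentile floor and with no floor, the median of the antioxidant genes, 0.47 as reported, was 1.13 and 0.01, that of replication and mitosis genes, 0.34 as reported, was 0.88 and 0.34, and that of lysosome genes, 0.60 as reported, was 0.79 and 0.60. The defensins, 0.14 as reported, had a median of 0.22 with no floor and none detected at the higher floor.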

Other observations

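Probe sets of chromosome 8 that carry no gene symbol were a further set of rows on the same arrays. Of 114 such probe sets 52 reached the floor. Their median NRF3 minus GFP was 0.31, with 76.9% above 0 and 30.8% at least 1.5-fold higher. The 1072 unnamed probe sets elsewhere that reached the floor had a median of -0.04, with 45.8% above 0 and 15.7% at least 1.5-fold higher. The order of the unnamed probe sets along the chromosome was not used here.

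The 381 chromosome 8 genes below the floor had a median of 0.14, beside 0.07 over the 8962 genes below it elsewhere.

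Promoter windows of the middle segment held the letters of 2 motifs more often than those of the outer segments. TGACNNNGC was in 18% of 133 windows of the middle segment, beside 10.7% of 103 in the first and 10.7% of 252 in the last. TGACGTCA was in 6.77%, 2.91% and 2.78% of the same windows, which is 9, 3 and 7 windows. CACGTG was in 6.02%, 7.77% and 11.1%. The windows came from 107 of 129 detected genes in the middle segment, 77 of 167 in the first and 209 of 252 in the last. Some genes had several windows, which can overlap and were counted separately. These shares were not tested.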
